A study of Mus musculus with 5 samples.

Results

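Interferon-stimulated genes were described in mouse liver RNA. They are a list of 39 genes named by symbol, and all 39 were in the count tables, which hold 24808 genes. All 39 also passed the low-count filter that left 13590 genes for testing. Livers came from C57BL/6 mice aged 16 weeks, and every mouse had received carbon tetrachloride (CCl4), a hepatotoxin that injures hepatocytes and scars the rodent liver on repeated use. In the CCl4+givinostat group (n = 2 libraries) the mice also received givinostat, a drug that inhibits histone deacetylases, which strip acetyl marks from histones and other proteins. The CCl4 group (n = 3 libraries) is its control. The labels used here give no dose, route or length of treatment, and no uninjured liver was analysed here, so levels are compared between injured livers only.

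Interferons are secreted antiviral signals. Type I and type III interferons act through JAK kinases on a complex that holds STAT2 and IRF9 and binds the interferon-stimulated response element (ISRE), while genes induced by interferon gamma often carry the gamma-activated site (GAS). The genes switched on include RNA sensors, enzymes that block viral RNA and protein synthesis, the ubiquitin-like protein ISG15, and GTPases that attack vacuoles holding pathogens. Hepatocytes, Kupffer cells, endothelial cells and infiltrating leukocytes can all carry out this response, so in bulk liver RNA fewer cells of a type and less RNA per cell cannot be told apart.

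Promoter sequences are shown because many of the members hold letters like those of these elements. RefSeq promoters on GRCm38.p6, from 250 bases before to 50 bases after a RefSeq start of the gene, were matched by symbol for 29 of the 39 members. Some members had more than 1 such promoter, 35 in all, and a gene was counted if any of its promoters held the string. An ISRE-type string, GAAA and GAAA parted by any 2 bases, was searched on both strands and stood in 17 of the 29 (58.6%), against 1079 of 27025 genes with a promoter in the table (3.99%). A GAS-type string, TTCNNNGAA, read the same way on both strands, stood in 10 of the 29 (34.5%), against 2582 genes (9.55%). Neither string stood in 8 of the 29, namely Oasl1, Oasl2, Irf7, Irf9, Ifi44, Ifi47, Xaf1 and Trim25. Both strings stood in 6 members (20.7%), namely Oas1a, Igtp, Irgm2, Gbp7, Bst2 and Eif2ak2, against 0.614% of genes. A match is a description of letters and not a site shown to be used, and the strings may overlap each other.

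Below are the 150 bases before the start of 7 members, 5′ to 3′ on the strand of the gene. ISRE-type and GAS-type matches that lie wholly within these bases are in capitals. The stretches of Ifit1, Isg15 and Ifit3 belong to genes with a large spread between CCl4 libraries. Those of Rsad2, Oas1a, Igtp and Bst2 belong to an antiviral enzyme, an RNA-sensing enzyme, a GTPase and the most abundant member per length.
Ifit1, chr19:34640739-34640888, plus strand: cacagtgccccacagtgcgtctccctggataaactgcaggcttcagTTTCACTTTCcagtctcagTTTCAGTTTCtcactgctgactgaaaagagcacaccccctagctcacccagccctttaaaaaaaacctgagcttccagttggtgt
Isg15, chr4:156200819-156200968, minus strand: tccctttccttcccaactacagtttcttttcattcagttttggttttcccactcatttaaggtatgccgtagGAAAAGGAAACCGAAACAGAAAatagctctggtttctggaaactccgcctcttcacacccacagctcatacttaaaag
Ifit3, chr19:34583379-34583528, plus strand: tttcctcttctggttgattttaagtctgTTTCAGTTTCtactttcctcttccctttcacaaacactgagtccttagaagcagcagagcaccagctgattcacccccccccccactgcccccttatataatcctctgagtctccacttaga
Rsad2, chr12:26456453-26456602, minus strand: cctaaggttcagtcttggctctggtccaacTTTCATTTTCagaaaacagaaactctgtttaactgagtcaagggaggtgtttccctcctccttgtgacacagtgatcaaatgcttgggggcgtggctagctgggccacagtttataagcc
Oas1a, chr5:120907526-120907675, minus strand: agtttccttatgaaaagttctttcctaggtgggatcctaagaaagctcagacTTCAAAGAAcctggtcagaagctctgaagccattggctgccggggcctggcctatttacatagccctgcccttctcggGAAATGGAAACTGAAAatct
Igtp, chr11:58199406-58199555, plus strand: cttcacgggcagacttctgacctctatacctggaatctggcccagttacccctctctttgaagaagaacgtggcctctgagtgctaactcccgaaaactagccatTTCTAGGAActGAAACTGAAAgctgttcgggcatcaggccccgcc
Bst2, chr8:71537473-71537622, minus strand: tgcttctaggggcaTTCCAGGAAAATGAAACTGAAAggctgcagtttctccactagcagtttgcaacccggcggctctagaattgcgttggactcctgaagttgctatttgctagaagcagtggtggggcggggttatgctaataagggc

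In Isg15, 3 overlapping ISRE-type matches run into each other, and in Ifit1 the 2 matches lie apart, from 104 to 95 and from 85 to 76 bases before the start. Ifit3 has another ISRE-type match, from 156 to 147 bases before the start, which runs into the printed bases and is left in small letters. In Bst2 the GAS-type letters, from 136 to 128 bases before the start, overlap the ISRE-type letters that follow. The Irf7 window held neither string, which says only that these letters are not in that window.

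Library totals were 18608002 to 21739034 counts, with CCl4 replicate 3 the shallowest. All pairs of libraries differed by more than sampling noise, and the labels state no batch. CCl4 replicate 3 stood apart from the other libraries for these genes, as described next, so the treatment contrast is given with and without it. Levels below are read counts divided by library size (CPM, with sizes scaled by the trimmed mean of M values, TMM), and the 3 CCl4 and 2 CCl4+givinostat libraries are described in the series as mice.

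The members' summed level was 2269 and 2106 CPM in CCl4+givinostat replicates 1 and 2, against 1780, 2342 and 3874 CPM in CCl4 replicates 1, 2 and 3. By this sum neither givinostat library lay outside the range of the CCl4 libraries, and CCl4 replicate 3 was above the other 4. The sum weights abundant members most, with Bst2 at 725 CPM and Irf7 at 287 CPM in CCl4 replicate 2. The members' median of log2 CPM minus the gene's 5-library mean was 0.018 and -0.021 in CCl4+givinostat, against -0.659, -0.24 and 0.954 in CCl4. CCl4 replicate 3 was the library with the highest CPM for 36 of the 39 members (92.3%), against 22% of all tested genes. The exceptions were Irf7 and Bst2, highest in CCl4 replicate 2, and Trim25, highest in CCl4 replicate 1. CCl4 replicate 1 was the lowest of the 5 libraries for 31 members (79.5%), against 25.3% of all tested genes. Both givinostat libraries lay above CCl4 replicates 1 and 2 and below CCl4 replicate 3 for 23 members (59.0%), against 3.53% of all tested genes.

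**Figure D1:**
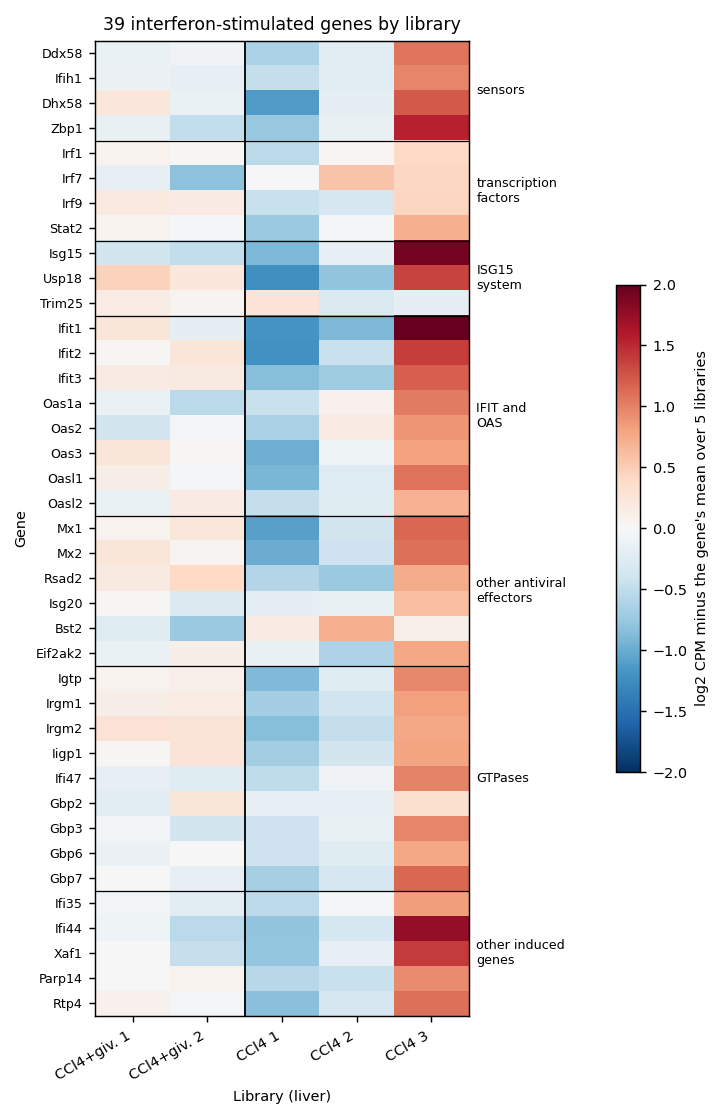
Heat map of the 39 interferon-stimulated genes (rows, grouped by role) in the 2 CCl4+givinostat and 3 CCl4 liver libraries (columns). Colour is log2 CPM minus the gene's mean over the 5 libraries, and the CCl4 replicate 3 column is the highest for 36 of the 39 genes.

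Within CCl4 the spread of single libraries was wider for the members than for all tested genes, and within CCl4+givinostat it was close to that of all tested genes. The median ratio of the highest to the lowest library was 1.14 over the members within CCl4+givinostat, where the median over all tested genes was 1.16. Within CCl4 it was 2.85 over the members, where the median over all tested genes was 1.39. A group of 3 libraries has a wider range than a group of 2 by its size alone, so the ratios of the groups are read against all genes and not against each other. CCl4 replicate 3 had at least 2 times the mean CPM of CCl4 replicates 1 and 2 for 32 of 39 members (82.1%), against 438 of 13590 genes (3.22%). The median of that ratio was 2.57 over the members and 0.993 over all tested genes. CCl4 replicate 2 over CCl4 replicate 1 had a median of 1.35 over the members, and the value for all tested genes was 1.00. The threshold of 2 and the choice of this library were made after the values were seen, and no test is attached to them.

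In the treatment contrast, no member was called by edgeR's quasi-likelihood test at a Benjamini-Hochberg adjusted p of 0.05 over all tested genes, where 1 gene of 13590 was called (0.00736%). DESeq2 called 0 members, where 1.09% of genes were called. At an unadjusted p under 0.05, edgeR placed 0 members higher in CCl4+givinostat, where the share over all genes was 3.52%, and 2 members lower, Irf7 and Bst2, where the share was 3.93%. Those 2 were also the members with both givinostat libraries below all CCl4 libraries (11.7% of all genes), and no member had both above all of them (11.7% of all genes). By sign alone 10 members were higher and 29 lower, with a median log2 fold change of -0.19 for CCl4+givinostat over CCl4, where the median of all tested genes was -0.02. Without CCl4 replicate 3, 36 members were higher and 3 lower, and the median log2 fold change was 0.37, where the median of all genes was -0.01. That fit placed 15 members higher at an unadjusted p under 0.05 (3.7% of all genes) and 2 lower (3.49% of all genes), and called none at the adjusted threshold. CCl4 replicate 3 was singled out because the members were high in it, so leaving it out by itself raises the fold changes of those members. Counts and p-values without that library, here and below, therefore give no test of givinostat. Without CCl4 replicate 1 the median was -0.43, and an unadjusted p under 0.05 was reached by 1 member upward and by 11 downward, where the shares of all genes were 7.8% and 8.09%.

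**Figure D2:**
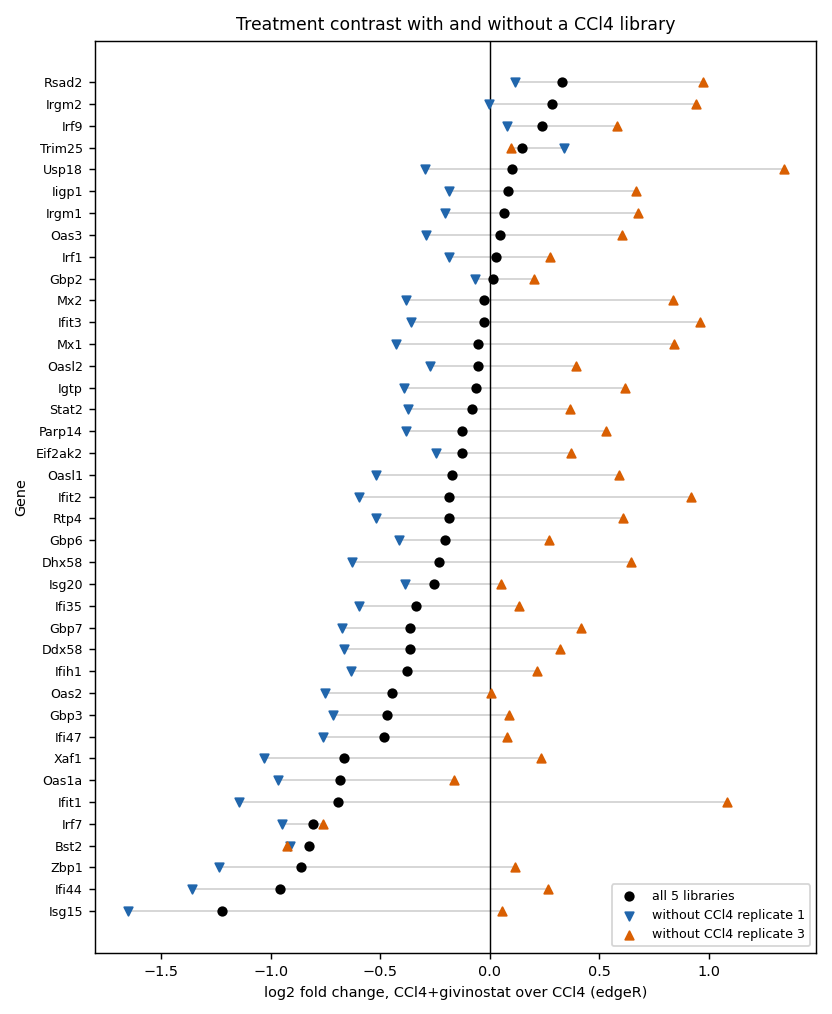
The log2 fold change of CCl4+givinostat over CCl4 from edgeR (x axis) for each of the 39 genes (y axis, ordered by the value over all libraries). Black circles use all 5 libraries, blue triangles leave out CCl4 replicate 1 and orange triangles leave out CCl4 replicate 3. Most orange triangles are above 0 (36 of 39), while 10 black circles are.

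The RNA and nucleic acid sensors were Ddx58, Ifih1, Dhx58 and Zbp1. Ddx58 (RIG-I), which detects the ends of viral RNA and lies at chr4:40203773-40239828, had 24.9 and 26.1 CPM in CCl4+givinostat, against 17.6, 23.4 and 57.4 CPM in CCl4. Ifih1 (MDA5), a sensor of long double-stranded RNA, had 34.3 and 33.1 CPM in CCl4+givinostat, against 26.7, 31.7 and 73.1 CPM in CCl4. Zbp1, which senses Z-form nucleic acid and can start cell death, had 25.3 and 20.0 CPM in CCl4+givinostat, against 16.6, 25.4 and 81.5 CPM in CCl4. In each of these the third CCl4 library was the high one and the groups overlapped. For all 4 sensors CCl4 replicate 3 was at least 2 times the mean of the other CCl4 libraries, by 2.50-fold for Ifih1 to 3.88-fold for Zbp1. The log2 fold change of Zbp1 was -0.86 ± 0.59 (SE, edgeR adjusted p = 0.856), and without CCl4 replicate 3 it was 0.11 ± 0.25 (edgeR adjusted p = 0.976).

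Among the transcription factors, Stat2, a subunit of the ISRE-binding complex at chr10:128270559-128292849, had 97.5 and 91.5 CPM in CCl4+givinostat, against 55.5, 91.9 and 153 CPM in CCl4. Irf9, its DNA-binding partner, had 62.2 and 60.7 CPM in CCl4+givinostat, against 39.8, 42.9 and 73.3 CPM in CCl4. For Irf9 both givinostat libraries were above CCl4 replicates 1 and 2 and below replicate 3. The Irf9 log2 fold change was 0.24 ± 0.26 (SE, edgeR adjusted p = 0.928). Without CCl4 replicate 3 it was 0.58 ± 0.17 (edgeR adjusted p = 0.446). Irf1, a factor induced early by interferon gamma, had 32.8 and 31.5 CPM in CCl4+givinostat, against 21.5, 32.0 and 41.2 CPM in CCl4, and its log2 fold change was 0.03 ± 0.25 (SE, edgeR adjusted p = 0.995).

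Irf7, the factor that amplifies type I interferon production, followed another order. At chr7:141262706-141266481, it had 174 and 110 CPM in CCl4+givinostat, against 195, 287 and 260 CPM in CCl4. Both givinostat libraries were below all 3 CCl4 libraries, and CCl4 replicate 2 was the highest. Its mean was 142 ± 45.2 CPM in CCl4+givinostat (SD, n = 2), against 247 ± 47.1 CPM in CCl4 (SD, n = 3). The log2 fold change was -0.80 ± 0.24 (SE), with an edgeR unadjusted p of 0.0101, an adjusted p of 0.462 and a DESeq2 adjusted p of 0.142, so it was not called. The two-sided exact permutation test gave p = 0.1, the smallest that the 10 assignments of these libraries allow. Irf7 fold changes were negative in every fit run, from -0.51 without CCl4+givinostat replicate 2, where the unadjusted p was no longer under 0.05, to -1.17 without CCl4+givinostat replicate 1.

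The 3 members of the ISG15 conjugation system ranged widely in their spread between CCl4 libraries. Isg15, the ubiquitin-like modifier at chr4:156199424-156200818, had 37.0 and 33.8 CPM in CCl4+givinostat, against 25.6, 42.6 and 180 CPM in CCl4. CCl4 replicate 3 was the high library, 7.003 times the lowest, and the givinostat libraries lay between CCl4 replicates 1 and 2. The Isg15 log2 fold change was -1.22 ± 0.71 (SE, edgeR adjusted p = 0.820) and 0.06 ± 0.26 without CCl4 replicate 3 (edgeR adjusted p = 0.983). Usp18, the protease that removes ISG15 and restrains the interferon receptor, had 52.7 and 44.7 CPM in CCl4+givinostat, against 16.4, 22.2 and 97.6 CPM in CCl4. Its givinostat libraries were both above CCl4 replicates 1 and 2 and below replicate 3. The Usp18 log2 fold change was 0.10 ± 0.65 (SE, edgeR adjusted p = 0.995), and 1.34 ± 0.22 without CCl4 replicate 3 (edgeR adjusted p = 0.109). Trim25, a ligase for ubiquitin and ISG15 that acts on RIG-I, had 138 and 129 CPM in CCl4+givinostat, against 150, 101 and 109 CPM in CCl4. CCl4 replicate 3 was not high for Trim25, at 0.871 times the mean of the other CCl4 libraries.

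All 8 IFIT and OAS genes were highest in CCl4 replicate 3. Ifit1, which binds viral RNA that lacks cap methylation and lies at chr19:34640871-34650009, had 36.4 and 27.2 CPM in CCl4+givinostat, against 13.6, 16.5 and 124 CPM in CCl4. CCl4 replicate 3 held 9.09 times the level of the lowest CCl4 library, the largest ratio among the 39 members. Ifit2, of the same RNA-binding family, had 18.7 and 21.6 CPM in CCl4+givinostat, against 7.96, 13.5 and 47.6 CPM in CCl4. The Ifit1 log2 fold change was -0.69 ± 0.85 (SE, edgeR adjusted p = 0.942) with all libraries, and 1.08 ± 0.22 without CCl4 replicate 3 (edgeR adjusted p = 0.204). Ifit3, whose product holds IFIT1 on RNA in human cells, had 51.0 and 51.4 CPM in CCl4+givinostat, against 25.2, 27.8 and 104 CPM in CCl4.

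The OAS enzymes make the messenger that activates RNase L. Oas1a had 17.5 and 13.2 CPM in CCl4+givinostat, against 14.1, 20.5 and 39.5 CPM in CCl4. Oas2 had 14.2 and 17.8 CPM in CCl4+givinostat, against 11.6, 20.4 and 33.6 CPM in CCl4. For both, the givinostat libraries fell among CCl4 replicates 1 and 2 or just below them. The Oas1a log2 fold change was -0.69 ± 0.40 (SE, edgeR adjusted p = 0.817) and was also negative without CCl4 replicate 3, at -0.17 ± 0.26. Over Oas3, Oasl1 and Oasl2, the ratio of CCl4 replicate 3 to the mean of the other CCl4 libraries was 2.08 to 3.08. Close copies in the IFIT and OAS1 families could share reads, so single values there are uncertain.

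**Figure D3:**
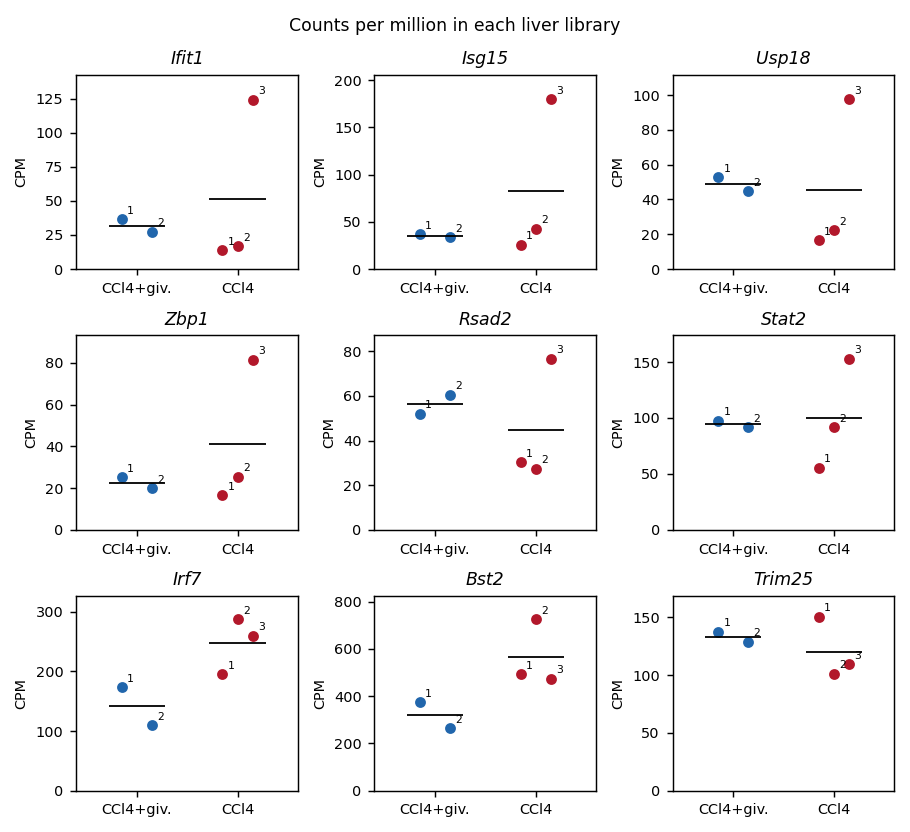
CPM of 9 interferon-stimulated genes in each CCl4+givinostat (blue) and CCl4 (red) liver library, numbered by replicate, with a black line at the group mean and the y axis starting at 0. Isg15 reached 180 CPM in CCl4 replicate 3. Irf7 and Bst2 were lower in both givinostat libraries than in any CCl4 library, as were 11.7% of all tested genes.

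Among the other antiviral effectors, Bst2 was the most abundant member, at 516 CPM per kilobase of exon over the 5 libraries, against 84.3 for Isg15, the next. The Isg15 value rests largely on CCl4 replicate 3, at 180 CPM, against 25.6 to 42.6 CPM in the other libraries. Bst2 (tetherin), which holds budding virus at the cell surface and lies at chr8:71534255-71537456, had 375 and 263 CPM in CCl4+givinostat, against 494, 725 and 474 CPM in CCl4. The givinostat libraries were both below the lowest CCl4 library, and CCl4 replicate 3 was the lowest of its group. The mean was 319 ± 78.7 CPM in CCl4+givinostat (SD, n = 2), against 564 ± 139 CPM in CCl4 (SD, n = 3). The log2 fold change was -0.82 ± 0.24 (SE), with an edgeR unadjusted p of 0.00878, an adjusted p of 0.446 and a DESeq2 adjusted p of 0.110. It was not called, and its two-sided exact permutation p was 0.1, the smallest possible. Without CCl4 replicate 3 the log2 fold change was -0.93 ± 0.26 (edgeR adjusted p = 0.406). As the other libraries were left out, Bst2 ran from -1.10 without CCl4+givinostat replicate 1 to -0.59 without CCl4+givinostat replicate 2, where its unadjusted p was no longer under 0.05, and it was -0.60 without CCl4 replicate 2.

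Rsad2 (viperin), which makes a chain-terminating nucleotide, had 52.0 and 60.5 CPM in CCl4+givinostat, against 30.4, 27.4 and 76.7 CPM in CCl4. Its givinostat libraries lay between CCl4 replicate 3 and the other CCl4 libraries. The Rsad2 log2 fold change was 0.33 ± 0.41 (SE, edgeR adjusted p = 0.942), and 0.97 ± 0.18 without CCl4 replicate 3 (edgeR adjusted p = 0.169). Isg20, an RNA exonuclease, was low throughout, with 4.42 and 3.55 CPM in CCl4+givinostat, against 3.84, 3.90 and 6.55 CPM in CCl4. Mx1, Mx2 and Eif2ak2 (PKR, the kinase that halts translation on double-stranded RNA) were 3.57, 3.44 and 2.20 times as high in CCl4 replicate 3 as in the mean of the other CCl4 libraries. The Mx1 allele of C57BL/6 mice is known to be defective, so its RNA says nothing of protein.

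The 9 interferon-inducible GTPases, which act on vacuoles holding pathogens, were all highest in CCl4 replicate 3, and 8 of them passed 2-fold, the exception being Gbp2 at 1.40-fold. Ifi47 had 18.0 and 17.0 CPM in CCl4+givinostat, against 14.2, 19.2 and 40.2 CPM in CCl4. Gbp3 had 26.5 and 21.3 CPM in CCl4+givinostat, against 20.7, 24.6 and 53.9 CPM in CCl4. Gbp7 had 20.2 and 18.0 CPM in CCl4+givinostat, against 12.7, 16.1 and 44.9 CPM in CCl4. For Ifi47 and Gbp3 the givinostat libraries were near CCl4 replicates 1 and 2, and for Gbp7 both lay above those replicates. In all 3 genes CCl4 replicate 3 was above every other library.

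The immunity-related GTPases Igtp, Irgm1, Irgm2 and Iigp1 had the highest levels per exon length among the GTPase members, from 17.0 CPM per kilobase for Irgm1 to 63.5 for Iigp1. Irgm2 had 103 and 100 CPM in CCl4+givinostat, against 46.4, 60.1 and 144 CPM in CCl4. Iigp1, which disrupts the vacuole of Toxoplasma, had 352 and 413 CPM in CCl4+givinostat, against 215, 269 and 601 CPM in CCl4. For all 4 of them both givinostat libraries were above CCl4 replicates 1 and 2 and below replicate 3. Without CCl4 replicate 3 the log2 fold changes were 0.62 for Igtp, 0.68 for Irgm1, 0.94 for Irgm2 and 0.67 for Iigp1, none of them called. Exons of Gbp6 and Gbp7 overlap a neighbour on the same strand over 29.0% and 11.4% of their length, and Igtp and Irgm2 overlap each other over 8.01% and 4.39%.

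The remaining induced genes were Ifi35, Ifi44, Xaf1, Parp14 and Rtp4, all highest in CCl4 replicate 3 and lowest in CCl4 replicate 1. Ifi44 had 16.5 and 11.9 CPM in CCl4+givinostat, against 10.1, 13.7 and 59.2 CPM in CCl4. Xaf1, a partner of the apoptosis inhibitor XIAP, had 18.1 and 13.3 CPM in CCl4+givinostat, against 10.7, 16.2 and 48.0 CPM in CCl4. Ifi35 had 33.2 and 29.8 CPM in CCl4+givinostat, against 24, 33.7 and 61.5 CPM in CCl4. The groups overlapped in all 5. The log2 fold change was -0.96 ± 0.68 for Ifi44 (SE, edgeR adjusted p = 0.856), and it was 0.26 ± 0.26 without CCl4 replicate 3. Ifi35 shares 16.8% of its exon length with a gene on the opposite strand, and whether counting used strand is not given in the sources used here.

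Counting error was small beside these differences. Against CCl4 replicates 1 and 2 pooled, CCl4 replicate 3 was 8.22 times as high for Ifit1 (exact 95% interval 7.53 to 8.99) and 2.08 times as high for Stat2 (1.98 to 2.19), intervals that cover counting error only. The tagwise biological coefficient of variation, edgeR's estimate of spread between libraries, had a median of 31.9% over the members, where it was 18.56% over all tested genes.

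Other interferon-induced genes outside the list showed the same library as the high one. Of 61 tested, 53 were highest in CCl4 replicate 3, and 32 were at least 2 times the mean of the other CCl4 libraries (52.5%, where the share of all genes was 3.22%). None was called by edgeR or DESeq2. By sign 52 of the 61 were lower in CCl4+givinostat, where 7318 of 13590 genes were, with a median log2 fold change of -0.19. Without CCl4 replicate 3, 60 were tested, of which 43 were higher and 17 lower, with a median of 0.29, and an unadjusted p under 0.05 was reached by 12 upward (3.7% of all genes) and by 3 downward (3.49% of all genes). With all libraries, 3 were lower (3.93% of all genes) and 0 higher (3.52% of all genes) at that threshold. The 3 were Mov10, an RNA helicase, Ly6e, a surface protein that alters virus entry, and Ifi27l2b, with edgeR adjusted p-values of 0.493, 0.493 and 0.501. Ly6e had 471 and 279 CPM in CCl4+givinostat, against 540, 674 and 664 CPM in CCl4. It was 1 of 4 among the 61 with both givinostat libraries below all CCl4 libraries (11.7% of all genes). The other GTPases had 8 of 11 tested genes highest in CCl4 replicate 3 (22% of all genes), with a median ratio of 1.503. Of the 11, 3 were at least 2 times the mean of the other CCl4 libraries (27.3%, against 3.22% of all genes). At an edgeR unadjusted p under 0.05, 1 of the 11 was lower (3.93% of all genes) and none higher. It was Gbp10, with 2.70 and 2.38 CPM in CCl4+givinostat, against 3.46, 4.91 and 6.65 CPM in CCl4.

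Genes upstream of the response were given beside them. Over 9 receptor and kinase genes the median ratio of CCl4 replicate 3 to the mean of the other CCl4 libraries was 0.956, and it was 1.06 over 14 genes of the sensing pathway and 0.924 over 12 negative regulators. Ifnar2, a chain of the type I interferon receptor, had 81.6 and 76.1 CPM in CCl4+givinostat, against 69.4, 84.5 and 69.5 CPM in CCl4. Mavs, the adaptor of RIG-I and MDA5, had 66.1 and 63.9 CPM in CCl4+givinostat, against 66.0, 56.2 and 49.5 CPM in CCl4. Neither showed CCl4 replicate 3 as the high library. Of these 35 genes, none was called or had an unadjusted p under 0.05 in the treatment contrast.

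The interferon transcripts themselves were at the limit of detection. Of 20 interferon genes listed, 15 had 0 counts in all 5 libraries and none passed the filter, and a count of 0 allows up to 3 counts, or 0.135 to 0.156 CPM. Ifng had 2 and 2 counts in CCl4+givinostat, against 2, 2 and 0 counts in CCl4. Ifnb1 had 0 and 0 counts in CCl4+givinostat, against 0, 1 and 0 counts in CCl4. No difference in interferon RNA was detectable at this depth. A low row is not always a silent gene in these tables: Ass1, an abundant urea-cycle enzyme of hepatocytes, had 27 and 15 counts in CCl4+givinostat, against 9, 22 and 6 counts in CCl4.

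Interferon-induced genes of antigen presentation and chemotaxis were listed apart. Over 17 MHC class I presentation genes, 8 were highest in CCl4 replicate 3 and 8 in CCl4 replicate 2, and the median ratio was 1.13. Psmb10, a subunit of the immunoproteasome, had 34.8 and 31 CPM in CCl4+givinostat, against 33.0, 57.8 and 62.9 CPM in CCl4 (edgeR unadjusted p = 0.0431, adjusted p = 0.651). Cxcl10, the chemokine for CXCR3-bearing lymphocytes, had 14.3 and 23.3 CPM in CCl4+givinostat, against 16.2, 20.5 and 32.7 CPM in CCl4. Of the 6 tested chemokine genes 4 were highest in CCl4 replicate 3, against 22% of all tested genes, with a median ratio of 1.28, and none was called.

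**Figure D4:**
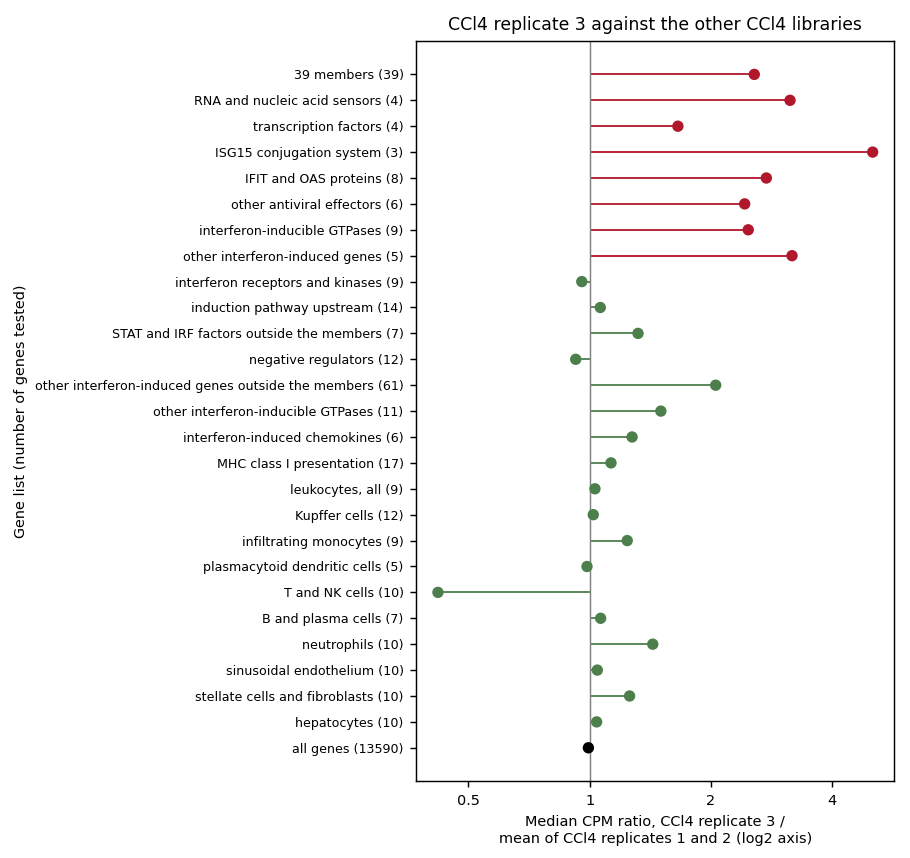
Median over the genes of each list (y axis, number tested in brackets) of CPM in CCl4 replicate 3 divided by the mean CPM of CCl4 replicates 1 and 2 (x axis, log2 scale). Red marks the 39 members and their role groups, green other lists and black all tested genes; the members lie at 2.57, other interferon-induced genes at 2.06 and all genes at 0.993.

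Cell type markers were read beside the members. Hepatocyte genes marked every library as liver, with Alb at 76650 and 72550 CPM in CCl4+givinostat, against 72100, 71060 and 78780 CPM in CCl4. The 12 Kupffer cell markers summed to 698 and 802 CPM in CCl4+givinostat, against 573, 1190 and 890 CPM in CCl4, and all 12 were highest in CCl4 replicate 2. The 10 tested neutrophil markers were all lowest in CCl4 replicate 1, the library in which 31 members were lowest, and summed to 94.6 and 91.7 CPM in CCl4+givinostat, against 24, 97.1 and 98.0 CPM in CCl4. Their median ratio of CCl4 replicate 3 to the mean of the other CCl4 libraries was 1.435. That ratio was at least 2-fold for 3 of the 10 (30%, against 3.22% of all genes), and 1 was lower in CCl4 replicate 3. The 9 monocyte markers summed to 150 and 171 CPM in CCl4+givinostat, against 119, 201 and 204 CPM in CCl4. Over the 10 tested T and NK cell markers the ratio of CCl4 replicate 3 to the mean of the other CCl4 libraries had a median of 0.420, with 0 of 10 at least 2-fold, and Gzma had 15 and 16 counts in CCl4+givinostat, against 60, 106 and 16 counts in CCl4. Stellate and fibroblast markers summed to 412 and 334 CPM in CCl4+givinostat, against 354, 343 and 472 CPM in CCl4. Among them Col3a1 had 56.5 and 34.4 CPM in CCl4+givinostat, against 44.7, 48.8 and 88.3 CPM in CCl4. Of the 10 markers, 3 were highest in CCl4 replicate 3. Their median ratio of CCl4 replicate 3 to the mean of the other CCl4 libraries was 1.257. That ratio was at least 2-fold for 1 of the 10, and 3 were lower in CCl4 replicate 3. The part of these cell types in the members' levels was not tested.

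Sinusoidal endothelial markers summed to 206 and 433 CPM in CCl4+givinostat, against 277, 462 and 393 CPM in CCl4. Their part in the members' levels was not tested. The 9 general leukocyte markers summed to 200 and 236 CPM in CCl4+givinostat, against 230, 306 and 261 CPM in CCl4. Bst2 also marks plasmacytoid dendritic cells, whose defining marker Siglech had 7 and 9 counts in CCl4+givinostat, against 3, 14 and 15 counts in CCl4. B and plasma cell markers had a median ratio of CCl4 replicate 3 to the other CCl4 libraries of 1.07, with none of 7 tested at least 2-fold.

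**Figure D5:**
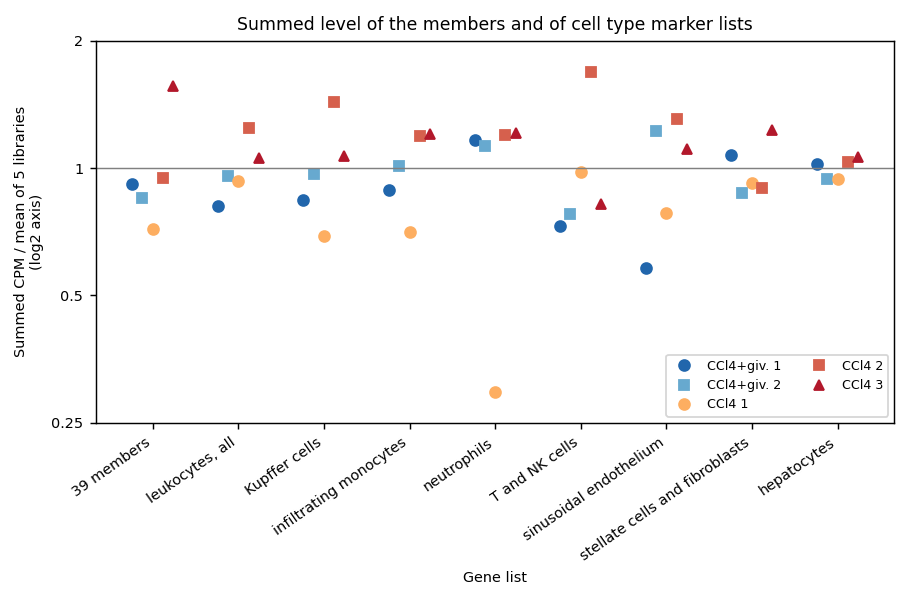
Summed CPM of the 39 members and of 8 cell type marker lists (x axis) in each library, divided by the mean of the 5 libraries (y axis, log2 scale), with CCl4+givinostat in blue and CCl4 in orange to red. CCl4 replicate 3 is highest for the members, at 3874 CPM, and CCl4 replicate 1 is lowest for neutrophil markers, at 24 CPM. Each sum weights the abundant genes of its list most.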

How the data were processed

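Liver RNA libraries had been made with the Illumina TruSeq RNA kit after Trizol extraction, per the labels. The authors deposited unnormalised counts of reads for each gene symbol, a table for every library. Bowtie 0.12.2 is named in the submitters' processing notes, as are the builds mm10 and mm8, without saying which step used what. The counting program, gene models and strand setting: not given in the sources used here. Rows with a date in place of a symbol (26 per library, 0.144 to 0.169% of counts) were left out.

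Groups followed the treatment label. Testing used edgeR 4.0.16 under R 4.3.3: filterByExpr defaults, TMM scaling, and a quasi-likelihood test with treatment as the only term over all 5 libraries (3 residual degrees of freedom), adjusted by Benjamini-Hochberg over 13590 genes. SE is the absolute log2 fold change over the square root of F. DESeq2 1.42.0, RLE scaling, other filters, a replicate block, an adjusted p of 0.1 and each library left out were alternatives. Gene positions and exon lengths come from GENCODE M21 (GRCm38). The depth behind each value is its library's total, and 3 counts correspond to 0.135 to 0.156 CPM.

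The members and all gene lists were chosen with earlier results of these data known. Members given with every library's value were the 4 transcription factors, the 3 with the smallest p in each role, the 5 with the largest ratio within a group and any that were called. Ifit3, Irgm2 and Iigp1 were added after their values were seen. From other pathway lists up to 3 genes with the smallest p were eligible, and from marker lists up to 3 with the highest mean CPM, and Siglech, Ass1, Ifng and Ifnb1 were added.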

Additional observations from a re-analysis of the deposited data

How the results depend on the processing

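The counts of called genes depended on the tool and on single libraries. edgeR called 1 gene higher and 0 lower over all genes, against 23 and 15 with no low-count filter, 0 and 0 when all libraries of a group had to hold 10 counts or more, 69 and 79 by DESeq2, and 2 and 1 at an adjusted p of 0.1. As each library was left out in turn, 0 to 119 genes were called higher and 0 to 116 lower, the highest counts without CCl4 replicate 1. No member was called under any of these settings. Members at an unadjusted p under 0.05 numbered 0 to 15 higher (15 without CCl4 replicate 3) and 0 to 11 lower (11 without CCl4 replicate 1, and 0 without CCl4+givinostat replicate 2). RLE scaling, both filters and DESeq2 turned the direction of no member.

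The members' median log2 fold change, -0.19 with all libraries, ran from -0.428 to 0.368 as each library was left out, positive only without CCl4 replicate 3. The median ratio of highest to lowest CCl4 library, 2.85, ran from 1.388 without CCl4 replicate 3 to 2.852 without CCl4 replicate 2. Without CCl4 replicate 3 the sign turned for 26 of 39 members. The lowest and highest log2 fold changes as each library was left out were -0.374 and 0.364 for Stat2, -0.751 and 0.007 for Oas2, -1.145 and 1.081 for Ifit1, -0.76 and 0.076 for Ifi47, -0.717 and 0.086 for Gbp3, -0.674 and 0.414 for Gbp7, -1.65 and 0.057 for Isg15, and -0.421 and 0.051 for Isg20. They were -1.358 and 0.264 for Ifi44, -1.03 and 0.233 for Xaf1, -0.596 and 0.132 for Ifi35, -1.238 and 0.113 for Zbp1, -0.634 and 0.217 for Ifih1, -0.664 and 0.318 for Ddx58, and -0.595 and 0.916 for Ifit2. Each of these 15 genes was positive only without CCl4 replicate 3. Usp18 ran from -0.298 to 1.34 and Irf1 from -0.187 to 0.272, both lowest without CCl4 replicate 1.

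In the fit with a replicate block, CCl4 replicate 3 has no partner, so that fit rests on the other 4 libraries and has 1 residual degree of freedom. Its values therefore share the limit given above for leaving that library out. Same-numbered libraries deviated with correlations of -0.15 and -0.076, and the labels do not say what a number shares. The replicate block called 68 genes higher and 77 lower of 13590 tested. Among them were 2 members, both higher, Ifit1 (edgeR adjusted p = 0.0275) and Usp18 (edgeR adjusted p = 0.00103). At an unadjusted p under 0.05 the block placed 16 members higher (3.12% of all genes) and 2 lower, Irf7 and Bst2 (3.11% of all genes). The members' median was 0.382. Under this block the log2 fold change was 0.403 for Stat2, 0.044 for Oas2, 1.064 for Ifit1, 0.083 for Ifi47, 0.075 for Gbp3, 0.412 for Gbp7, 0.094 for Isg15, 0.035 for Isg20, 0.254 for Ifi44, 0.239 for Xaf1, 0.142 for Ifi35, 0.127 for Zbp1, 0.213 for Ifih1, 0.324 for Ddx58 and 0.951 for Ifit2.

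With 2 and 3 libraries, permutation p-values cannot fall below 0.1. Beyond the libraries and the block named here, the cause of a changed call was not tested.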
